A study of Mus musculus with 14 samples.

Results

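The collagen chain genes are the genes whose symbol is Col, a type number, the letter a and a chain number, and 44 of the 22430 genes in the count table met that rule. They were sorted by the kind of assembly their chains enter into 11 fibrillar, 6 basement membrane, 9 FACIT and 18 other chains, where FACIT stands for fibril-associated collagens with interrupted triple helices. RNA was sequenced from the lysed intima, the inner layer, of the thoracic aorta of mice that all lacked apolipoprotein E (Apoe-/-), which makes them prone to atherosclerosis. The ubiquitous progerin mice (Apoe-/-LmnaG609G/G609G, 3 pools) carried on both Lmna copies the G609G change that leads to progerin, a shortened form of lamin A that causes Hutchinson-Gilford progeria, wherever Lmna is used. Their control mice (Apoe-/-Lmna+/+, 4 pools) had wild-type Lmna and are called wild-type control here. The VSMC progerin mice (Apoe-/-LmnaLCS/LCS SM22Cre, 3 pools) made progerin in vascular smooth muscle cells, where the SM22 promoter drove Cre recombinase, and lamin C only elsewhere. Their control mice (Apoe-/-LmnaLCS/LCS, 4 pools) had no Cre, made lamin C only and are called lamin C-only control. Each pool held lysates of 12 to 14 mice of 1 genotype, so p-values measure the spread between pools, and the labels give neither age nor sex.

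Collagens are proteins of the extracellular matrix in which chains wind into a triple helix, either of identical chains or of different ones that must be made together. Fibrillar collagens such as types I, III and V form the fibres that bear load in the media and adventitia of arteries. Type IV collagens form the sheet-like network of basement membranes, including the one under the endothelium, and their genes sit in head-to-head pairs. FACIT collagens attach to the surface of fibrils, and the remaining types form beaded filaments, hexagonal networks, anchoring fibrils or membrane proteins.

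Library totals ran from 27169784 to 35692385 estimated counts over the 14 libraries. The collagen chain genes took 0.197 to 0.201% of the counts in ubiquitous progerin pools and 0.309 to 0.333% in wild-type control pools, and 0.577 to 0.608% in VSMC progerin pools and 0.327 to 0.359% in lamin C-only control pools. The 15 endothelial markers summed to between 21873 and 26894 CPM in the 14 libraries and the 12 smooth muscle markers to between 712 and 1160.1 CPM, so endothelial markers led, as the label of intima has it. CPM stands for counts per 1000000, with library totals scaled by TMM normalisation. Genes with a count numbered 14328 in wild-type control pool 1 and 14763 to 15452 in the other libraries. Mitochondrially encoded genes took 7.29 to 8.22% of counts in ubiquitous progerin pools against 4.6 to 5.42% in wild-type control pools, and 11.5 to 12.1% in VSMC progerin pools against 3.53 to 4.61% in lamin C-only control pools. Counts per gene do not separate progerin from lamin A transcripts, so the genotype labels were not checked here. The RNA is from bulk tissue, in which fewer cells of a type and less RNA per cell cannot be told apart.

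Of the 44 collagen chain genes 33 had enough counts to be tested, and the 2 models moved them differently. In ubiquitous progerin intima 11 of the 33 were lower and 5 higher than in wild-type control intima, at an adjusted p under 0.05 by edgeR's quasi-likelihood test, while 28.3% of all 14269 tested genes were lower and 26.3% higher, 54.6% in all. In VSMC progerin intima 20 of the 33 were higher and 5 lower than in lamin C-only control intima, while 19.0% of all tested genes were higher and 23.0% lower, 42.0% in all. Without 1 pool at a time, 8 to 10 of the 33 were lower and 2 to 4 higher in ubiquitous progerin intima, and 18 to 20 were higher and 3 to 5 lower in VSMC progerin intima. The median log2 fold change of the 33 was -0.20 in the ubiquitous model and 0.83 in the VSMC model, beside medians over all tested genes of -0.005 and -0.03. Lamin C-only control against wild-type control gave 1 higher collagen chain gene and no lower one. The 2 progerin effects have no library in common, whereas the comparison of both controls shares its libraries with each of them.

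**Figure D1:**
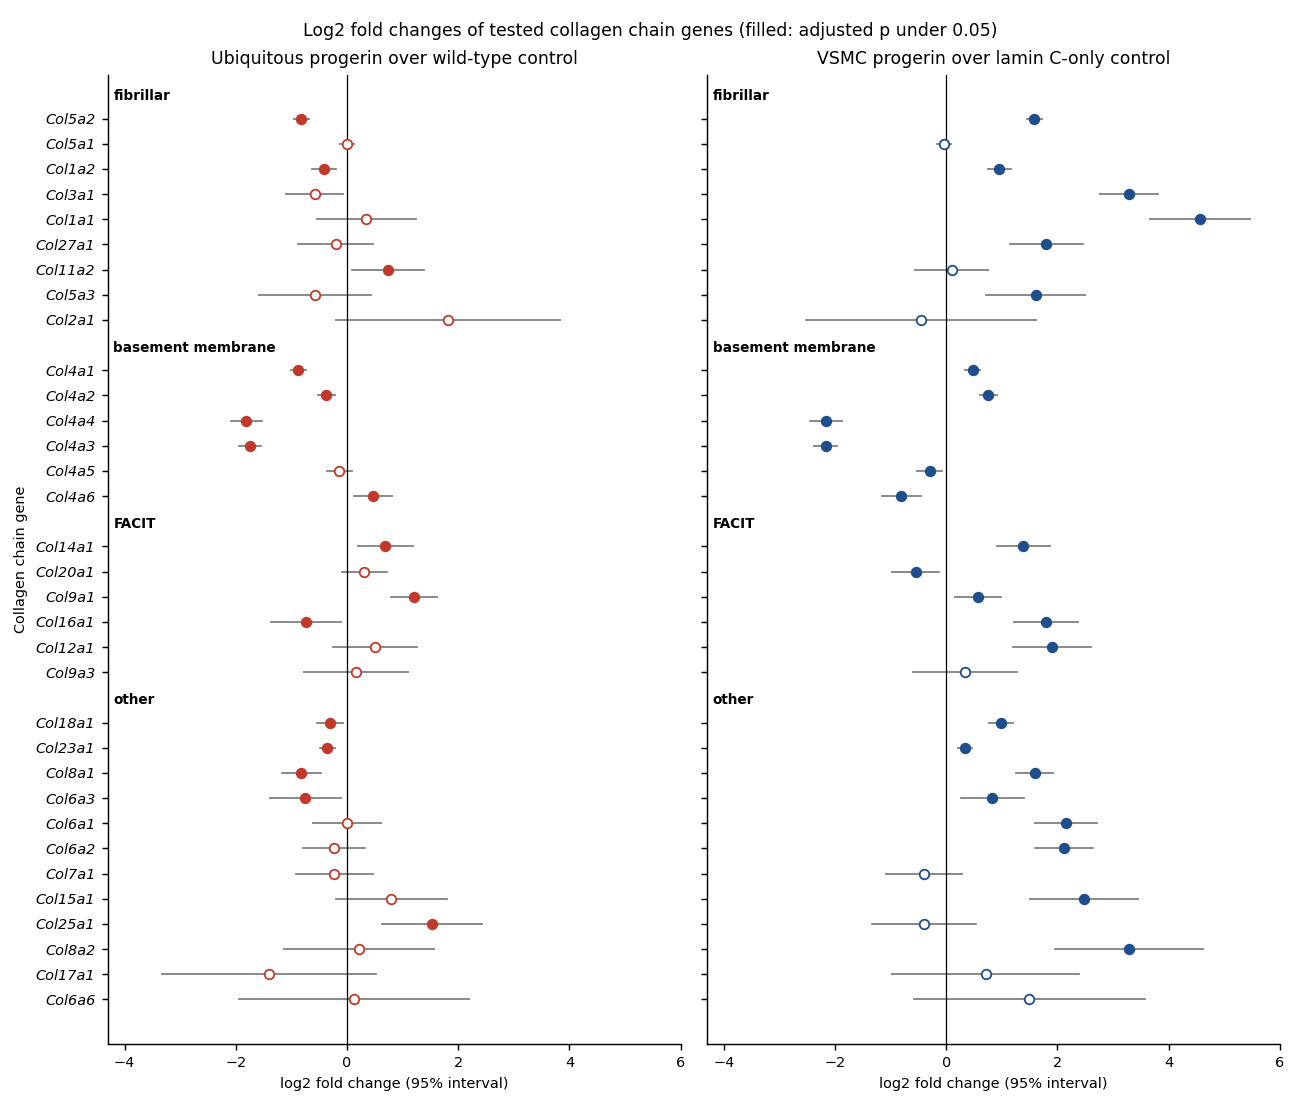
Log2 fold changes (horizontal axis) of the 33 tested collagen chain genes (vertical axis, grouped by type), with the 95% interval as a line and a filled point where the adjusted p was under 0.05. In the left panel (ubiquitous progerin over wild-type control) 11 filled points lie left of 0 and 5 right of it; in the right panel (VSMC progerin over lamin C-only control) 5 lie left and 20 right.

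Summed over all chains and divided by transcript length, collagen expression was 305 ± 3.6 CPM per kb in ubiquitous progerin intima (SD, n = 3) and 470.2 ± 13.3 CPM per kb in wild-type control intima (SD, n = 4). It was 988 ± 17.6 CPM per kb in VSMC progerin intima (SD, n = 3) and 504 ± 19.4 CPM per kb in lamin C-only control intima (SD, n = 4). The ranges of pools did not overlap within either pair. Basement membrane chains made 41.9 ± 1.5% of this sum in ubiquitous progerin and 50.1 ± 1.3% in wild-type control intima, and 29.2 ± 0.90% in VSMC progerin and 50.4 ± 1.6% in lamin C-only control intima. Fibrillar chains made 40.0 ± 1.2% in ubiquitous progerin and 36.2 ± 2.6% in wild-type control intima, and 53.3 ± 0.67% in VSMC progerin and 32.3 ± 1.1% in lamin C-only control intima. Fibrillar chains were thus ahead of basement membrane chains in VSMC progerin intima, and behind them in the mean of each other group.

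**Figure D2:**
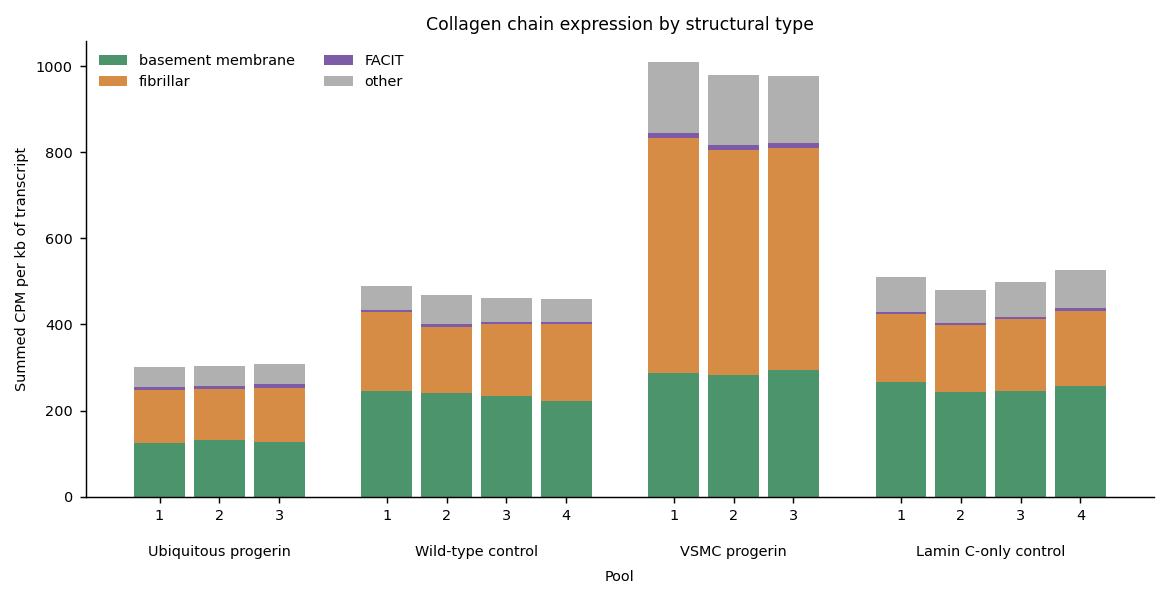
Summed expression (CPM per kb of transcript, vertical axis) of basement membrane, fibrillar, FACIT and other collagen chains, stacked, in each pool (horizontal axis). The 3 VSMC progerin pools reach 977 to 1008, above the lamin C-only control pools at 481 to 527, and the 3 ubiquitous progerin pools reach 302 to 309, below the wild-type control pools at 459.8 to 489.

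By level per kb, Col4a1 was the first chain in ubiquitous progerin, wild-type control and lamin C-only control intima, at 59.5 ± 3.1, 109.6 ± 8.4 and 124 ± 7.3 CPM per kb. Col5a2 was the second in those groups and the first in VSMC progerin intima, at 229.5 ± 6.6 CPM per kb, ahead of Col4a1 at 172 ± 2.4 CPM per kb. Col3a1 had rank 3 in VSMC progerin intima, at 120.5 ± 5.7 CPM per kb, and rank 10 in lamin C-only control intima, at 12.3 ± 2.5 CPM per kb. Col1a1 had rank 7 in VSMC progerin intima at 69.8 ± 9.2 CPM per kb and rank 13 in lamin C-only control intima at 2.95 ± 1.2 CPM per kb. In the ubiquitous model Col4a2 had rank 3 in both groups, and Col1a2 rank 5 in ubiquitous progerin and rank 4 in wild-type control intima. Col4a4 had rank 8 in ubiquitous progerin and rank 5 in wild-type control intima.

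The 6 type IV chains were all tested, with 4 lower and 1 higher in ubiquitous progerin and 2 higher and 4 lower in VSMC progerin intima. Over all tested genes, 28.3% were lower and 26.3% higher in ubiquitous progerin, and 19.0% higher and 23.0% lower in VSMC progerin intima. Col4a1 and Col4a2 encode the chains of the common basement membrane network, and they were lower in ubiquitous progerin and higher in VSMC progerin intima than in the controls. Col4a3 and Col4a4, whose chains join that of Col4a5 in specialised basement membranes, best known from the kidney glomerulus, were lower in both models. The shared start regions of both pairs are shown because neighbouring genes in each pair moved in the same direction. Col4a4 (GRCm38 chromosome 1, 82448423 to 82586849, minus strand) and Col4a3 (chromosome 1, 82586921 to 82722059, plus strand) are 71 bases apart and point away from each other. Col4a1 (chromosome 8, 11198423 to 11312826, minus strand) and Col4a2 (chromosome 8, 11312805 to 11449287, plus strand) overlap by 22 bases at their starts. The strand setting of the counting is not given in the sources used here, so the assignment of reads in that overlap is uncertain. The windows below come from RefSeq (GRCm38.p6), hold 250 bases before and 50 after the start, and have matches to CCAAT or GGGCGG on either strand in capitals.
Col4a4 promoter, chr1:82586800-82587099, minus strand: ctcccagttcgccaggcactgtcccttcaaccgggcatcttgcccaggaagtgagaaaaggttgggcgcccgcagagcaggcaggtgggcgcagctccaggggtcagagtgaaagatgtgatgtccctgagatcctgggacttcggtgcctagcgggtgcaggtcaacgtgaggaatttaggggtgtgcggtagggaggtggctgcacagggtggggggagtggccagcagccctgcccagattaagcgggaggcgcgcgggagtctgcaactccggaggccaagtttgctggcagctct
Col4a1 promoter, chr8:11312777-11313076, minus strand: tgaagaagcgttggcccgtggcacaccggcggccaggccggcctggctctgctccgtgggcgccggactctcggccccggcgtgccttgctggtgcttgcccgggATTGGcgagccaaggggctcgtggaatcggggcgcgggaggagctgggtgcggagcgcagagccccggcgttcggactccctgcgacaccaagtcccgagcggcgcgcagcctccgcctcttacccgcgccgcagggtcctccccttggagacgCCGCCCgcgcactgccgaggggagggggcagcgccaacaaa
The Col4a4 window has no capital letters, holds the annotated start of Col4a3 as well, and is 63.3% G or C. The Col4a1 window has a match to each motif, is 74.0% G or C and shares 78 bases with the window of Col4a2.

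Col4a4 stood at 115, 105 and 116 CPM in the ubiquitous progerin pools 1 to 3, and at 433, 322, 405 and 409 CPM in the wild-type control pools 1 to 4. It stood at 67.6, 73.2 and 104 CPM in the VSMC progerin pools, and at 379, 361, 365 and 354 CPM in the lamin C-only control pools. Every progerin pool lay below every control pool, by 3.50-fold in the ubiquitous model (log2 fold change -1.81 ± 0.13 SE, adjusted p = 4.58e-08) and by 4.48-fold in the VSMC model (-2.16 ± 0.13 SE, adjusted p = 1.70e-08). Col4a3 had 69.3, 68.3 and 76.5 CPM in the ubiquitous progerin pools, against 269.7, 203, 249 and 238 CPM in the wild-type control pools. It had 45.5, 48.9 and 58.7 CPM in the VSMC progerin pools, against 249, 221, 224 and 224 CPM in the lamin C-only control pools. Its groups did not overlap either, and the log2 fold changes were -1.75 ± 0.10 SE (adjusted p = 4.47e-11) and -2.17 ± 0.10 SE (adjusted p = 5.64e-12). The ratio of Col4a3 to Col4a4 per kb was 0.754 ± 0.037 in ubiquitous progerin and 0.724 ± 0.025 in wild-type control intima, and 0.752 ± 0.071 in VSMC progerin and 0.743 ± 0.024 in lamin C-only control intima, so both chains fell in nearly the same proportion.

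The third partner, Col4a5, lies on the X chromosome beside Col4a6, with 1308 bases between the starts of the pair. Col4a5 had 50.03, 52.7 and 57.1 CPM in ubiquitous progerin pools and 64.2, 54.5, 63.2 and 53.4 CPM in wild-type control pools, ranges that overlap, and the 95% interval of its log2 fold change ran from -0.37 to 0.08. It had 51.8, 41.7 and 58.9 CPM in VSMC progerin pools and 54.3, 61.3, 64.2 and 69.6 CPM in lamin C-only control pools. There it was called lower (log2 fold change -0.30 ± 0.11 SE, adjusted p = 0.0335), but the ranges overlap and the call was lost in 5 of the 7 fits that left out 1 pool and with DESeq2 size factors (adjusted p = 0.0621). The ratio of Col4a3 to Col4a5 per kb was 1.02 ± 0.034 in ubiquitous progerin and 3.11 ± 0.25 in wild-type control intima, and 0.777 ± 0.11 in VSMC progerin and 2.85 ± 0.45 in lamin C-only control intima. Col4a6 was the only type IV gene higher in ubiquitous progerin and lower in VSMC progerin intima. It had 22.7, 25.6 and 27.2 CPM in ubiquitous progerin pools against 23.1, 15.99, 18.6 and 15.3 CPM in wild-type control pools (log2 fold change 0.47 ± 0.16 SE, adjusted p = 0.0198). That call was lost in 4 of the 7 fits that left out 1 pool, with adjusted p between 0.0552 and 0.0812. In VSMC progerin pools it had 9.04, 9.06 and 13.1 CPM, against 15.6, 15.9, 19.0 and 22.4 CPM in lamin C-only control pools, which do not overlap (log2 fold change -0.81 ± 0.17 SE, adjusted p = 0.000802).

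Col4a1 had 376, 416 and 389 CPM in the ubiquitous progerin pools, against 753, 788, 693 and 665 CPM in the wild-type control pools. It had 1124, 1136 and 1156 CPM in the VSMC progerin pools, against 884, 776, 790.0 and 826 CPM in the lamin C-only control pools. Neither pair of groups overlapped, and the log2 fold changes were -0.88 ± 0.06 SE (adjusted p = 9.40e-10) and 0.48 ± 0.06 SE (adjusted p = 4.49e-06). Col4a2 had 235, 251 and 225 CPM in the ubiquitous progerin pools and 287, 360.4, 303 and 275 CPM in the wild-type control pools. It had 620.5, 585 and 597 CPM in the VSMC progerin pools and 365, 347, 335 and 372 CPM in the lamin C-only control pools. Its groups were likewise apart, with log2 fold changes of -0.37 ± 0.08 SE (adjusted p = 0.000345) and 0.76 ± 0.07 SE (adjusted p = 8.28e-08). The smaller fall and larger rise of Col4a2 left the ratio of Col4a1 to Col4a2 per kb lower in both models. That ratio was 1.62 ± 0.061 in ubiquitous progerin and 2.32 ± 0.18 in wild-type control intima, and 1.85 ± 0.072 in VSMC progerin and 2.25 ± 0.095 in lamin C-only control intima, with no overlap of pools within either pair.

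**Figure D3:**
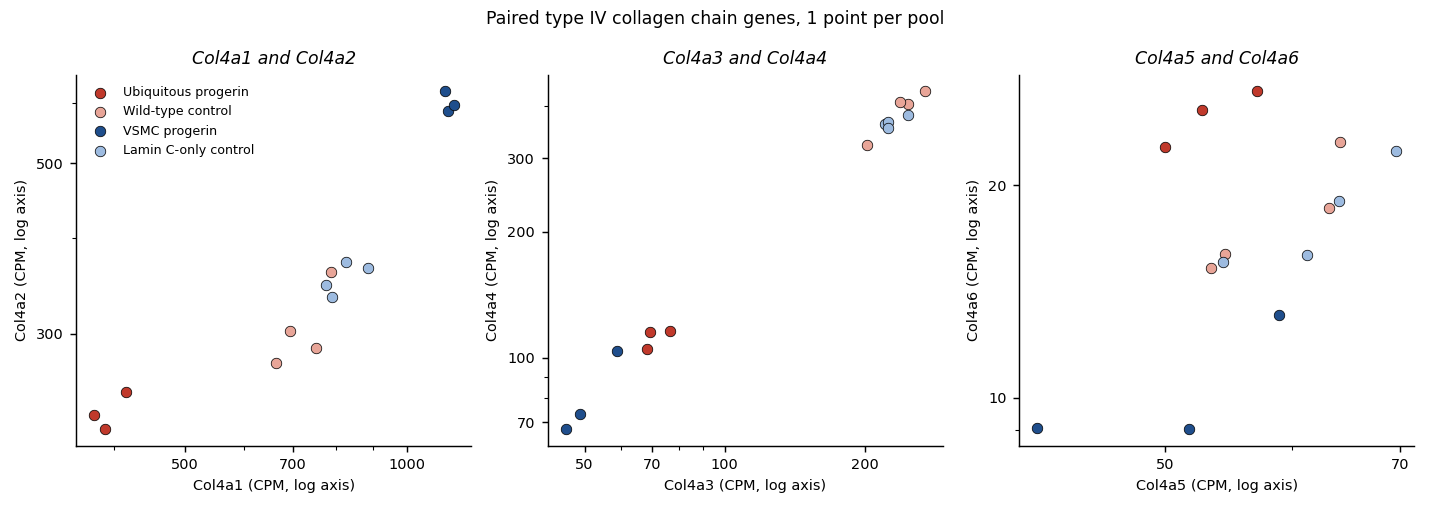
Levels (CPM, log axes) of the neighbouring type IV genes in each of the 14 pools: Col4a1 and Col4a2, Col4a3 and Col4a4, and Col4a5 and Col4a6. VSMC progerin pools are the highest for Col4a1 (1124 to 1156 CPM) and ubiquitous progerin pools the lowest (376 to 416 CPM), while both progerin groups lie at 116 CPM or below for Col4a4 and all control pools at 322 CPM or above.

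As background for the fibrillar chains, 28.3% of all tested genes were lower and 26.3% higher in ubiquitous progerin intima. In VSMC progerin intima 19.0% were higher and 23.0% lower. Of the 9 tested fibrillar chains, 2 were lower and 1 was higher in ubiquitous progerin intima, and 6 were higher and none lower in VSMC progerin intima. In VSMC progerin intima the most abundant of those 6 were Col5a2 and the chains of types I and III, which build the large fibres of the vessel wall. Col5a1 was flat in both models, whereas its partner Col5a2, which joins 2 Col5a1 chains in type V collagen, fell in the ubiquitous and rose in the VSMC model. The promoters of Col1a2 and Col3a1 are shown for contrast, since both genes rose in VSMC progerin intima and their start regions differ in sequence. Col3a1 rose more than Col1a2 there, and the ratio of Col3a1 to Col1a2 per kb was 1.63 in VSMC progerin and 0.323 in lamin C-only control intima. The capitals mark matches on either strand to TATAAA (the letters of a TATA box), to CCAAT, to GGGCGG (a GC box) or to GGAATG (the TEAD motif) in the RefSeq windows (GRCm38.p6). Matches were taken at any position in the window, so the TATAAA match is not placed as a working TATA box.
Col1a2 promoter, chr6:4505368-4505667, plus strand: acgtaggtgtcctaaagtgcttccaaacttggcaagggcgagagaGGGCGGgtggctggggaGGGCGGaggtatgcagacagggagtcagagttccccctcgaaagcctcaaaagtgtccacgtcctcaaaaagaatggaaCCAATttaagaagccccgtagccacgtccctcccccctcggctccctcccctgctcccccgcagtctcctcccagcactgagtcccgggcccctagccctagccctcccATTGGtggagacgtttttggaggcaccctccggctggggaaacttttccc
Col3a1 promoter, chr1:45311288-45311587, plus strand: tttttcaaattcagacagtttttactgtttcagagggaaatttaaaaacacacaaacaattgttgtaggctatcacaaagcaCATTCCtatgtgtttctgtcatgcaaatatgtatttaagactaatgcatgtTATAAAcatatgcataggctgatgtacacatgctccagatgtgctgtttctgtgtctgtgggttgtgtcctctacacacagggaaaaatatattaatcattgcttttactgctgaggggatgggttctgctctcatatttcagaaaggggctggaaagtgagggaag
The Col1a2 window is 61.0% G or C and has 2 matches each to CCAAT and GGGCGG. The Col3a1 window is 37.7% G or C, the lowest share among the windows of collagen chain genes, and has 1 match each to TATAAA and GGAATG.

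Col5a2 (chromosome 1, 45374321 to 45503282, minus strand) had 295, 311 and 293 CPM in the ubiquitous progerin pools, against 545, 482, 501 and 584 CPM in the wild-type control pools. It had 1539, 1552 and 1470.5 CPM in the VSMC progerin pools, against 502, 486, 540.2 and 499 CPM in the lamin C-only control pools. The groups lay apart in both models, with log2 fold changes of -0.82 ± 0.06 SE (adjusted p = 2.01e-09) and 1.59 ± 0.06 SE (adjusted p = 2.76e-13). Col5a1 (chromosome 2, 27886425 to 28039514, plus strand) had 277, 285 and 262 CPM in the ubiquitous progerin pools and 283, 255, 272 and 285 CPM in the wild-type control pools. It had 264, 242 and 281 CPM in the VSMC progerin pools and 275, 257, 270.1 and 272 CPM in the lamin C-only control pools. All 4 groups overlapped, and the 95% intervals of the log2 fold change ran from -0.12 to 0.13 in the ubiquitous model and from -0.16 to 0.10 in the VSMC model. Per kb, Col5a2 stood to Col5a1 as 1.38 ± 0.032 in ubiquitous progerin and 2.44 ± 0.11 in wild-type control intima, and as 7.39 ± 0.75 in VSMC progerin and 2.40 ± 0.10 in lamin C-only control intima. The third chain of the type, Col5a3, had 4.84 to 6.74 CPM in VSMC progerin pools and 1.65 to 2.57 CPM in lamin C-only control pools (log2 fold change 1.61 ± 0.43 SE, adjusted p = 0.00494).

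Type I collagen is built of 2 chains from Col1a1 and 1 from Col1a2. Col1a2 (chromosome 6, 4504814 to 4541544, plus strand) had 154, 141 and 173 CPM in the ubiquitous progerin pools, against 233, 170.5, 225 and 205 CPM in the wild-type control pools. It had 391, 393 and 400.1 CPM in the VSMC progerin pools, against 185, 197, 195 and 237 CPM in the lamin C-only control pools. The groups overlapped in the ubiquitous model (log2 fold change -0.42 ± 0.10 SE, adjusted p = 0.00219) and lay apart in the VSMC model (0.96 ± 0.10 SE, adjusted p = 7.42e-07). Col1a1 (chromosome 11, 94936224 to 94953042, plus strand) had 34.6, 13.3 and 23.5 CPM in the ubiquitous progerin pools and 16.9, 30.1, 13.1 and 14.6 CPM in the wild-type control pools. It had 470.4, 411 and 361 CPM in the VSMC progerin pools and 13.4, 11.2, 18.7 and 26.7 CPM in the lamin C-only control pools. The first 2 groups overlapped, with a 95% interval of the log2 fold change from -0.54 to 1.24, whereas in the VSMC model the gene was 23.7-fold higher (95% interval 12.7 to 44.3, adjusted p = 6.45e-06). The ratio of Col1a1 to Col1a2 per kb was 0.137 ± 0.060 in ubiquitous progerin and 0.0854 ± 0.050 in wild-type control intima, and 0.948 ± 0.14 in VSMC progerin and 0.0763 ± 0.022 in lamin C-only control intima. Per kb, then, Col1a1 was far below Col1a2 in each pool of the other 3 groups (highest ratio 0.202) and close to it in VSMC progerin pools (0.814 to 1.09).

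Col3a1 (chromosome 1, 45311538 to 45349706, plus strand), the sole chain of type III collagen, lies 24614 bases from Col5a2, with which its 3' end converges. It had 55.8, 36.2 and 72.1 CPM in the ubiquitous progerin pools, against 104, 67.6, 75.3 and 81.3 CPM in the wild-type control pools. It had 702, 638 and 672 CPM in the VSMC progerin pools, against 59.4, 63.4, 62.7 and 89.3 CPM in the lamin C-only control pools. It was 9.77-fold higher in the VSMC model (log2 fold change 3.29 ± 0.23 SE, adjusted p = 7.86e-07). In the ubiquitous model the groups overlapped and the gene missed the threshold (-0.58 ± 0.23 SE, adjusted p = 0.0528), but it passed with DESeq2 (adjusted p = 0.0341), limma-voom (0.00839) and the deposited log2 values (0.0332). Of the remaining fibrillar chains, Col27a1 was higher in VSMC progerin intima (1.80 ± 0.31 SE, adjusted p = 0.000103) at means of 5.64 CPM in VSMC progerin against 1.61 CPM in lamin C-only control intima. Col11a2 was called higher in ubiquitous progerin intima (0.74 ± 0.31 SE, adjusted p = 0.0490) at means of 3.55 CPM in ubiquitous progerin and 2.13 CPM in wild-type control intima, a call lost in 6 of the 7 fits that left out 1 pool. Col2a1, the chain of cartilage fibrils, averaged under 0.5 CPM in every group and passed in neither model.

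**Figure D4:**
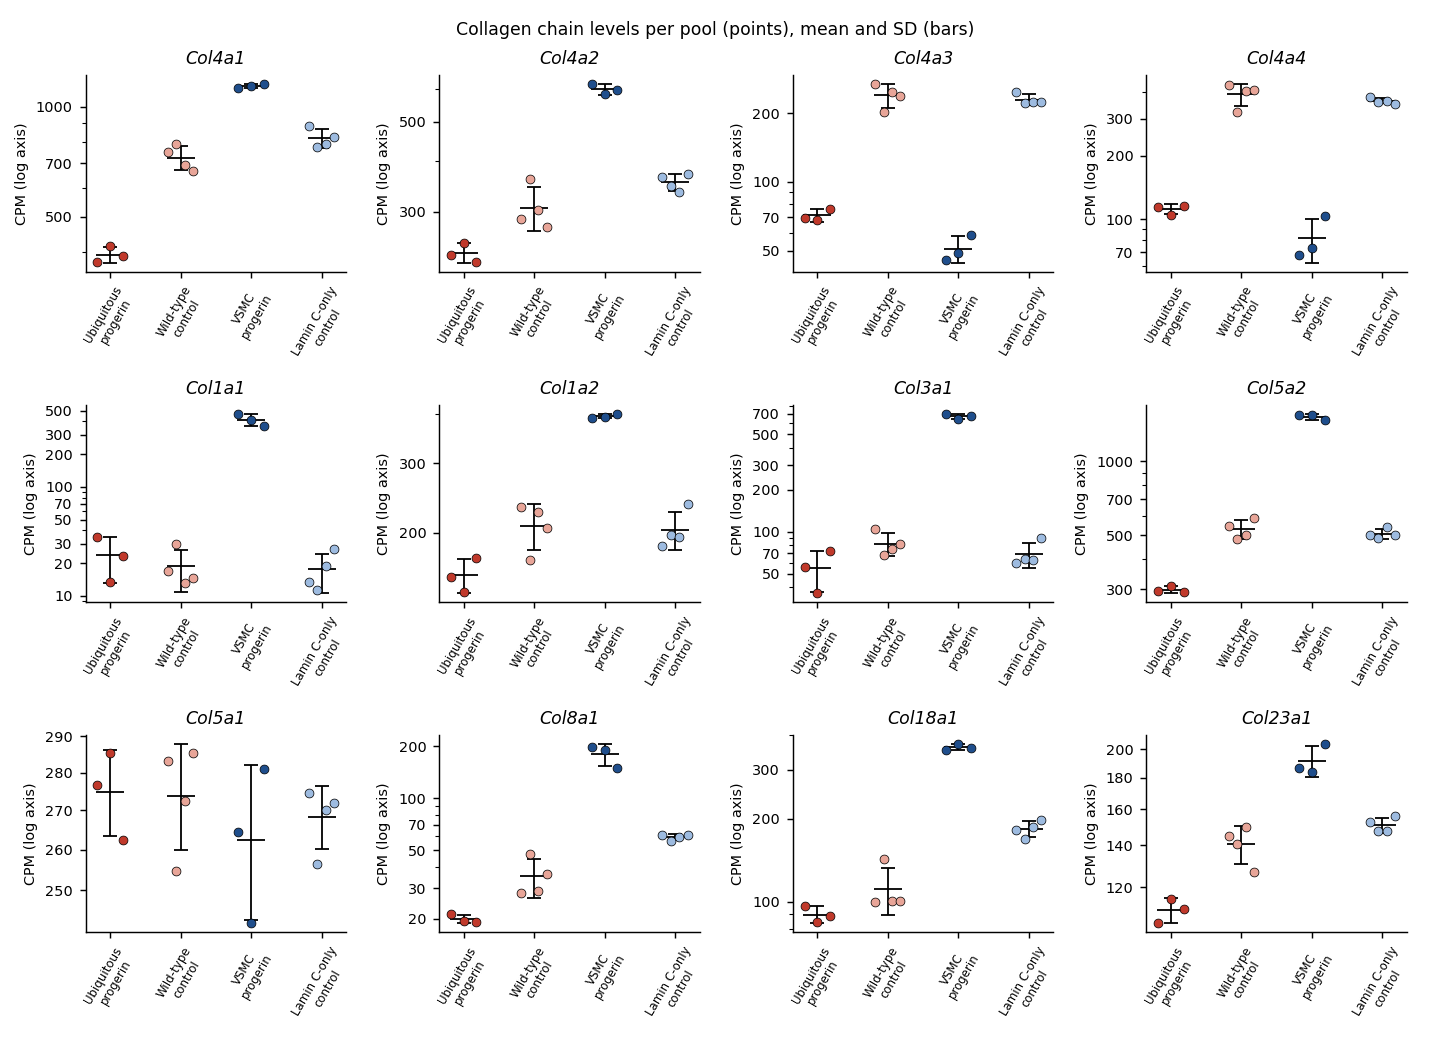
Level (CPM, log axis) of 12 collagen chain genes in each pool, with the mean and SD as bars, in ubiquitous progerin, wild-type control, VSMC progerin and lamin C-only control intima. Col1a1 and Col3a1 stand apart in the VSMC progerin pools (361 to 470.4 and 638 to 702 CPM), Col4a3 and Col4a4 are low in both progerin groups, and Col5a1 lies between 242 and 285 CPM throughout.

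**Figure D5:**
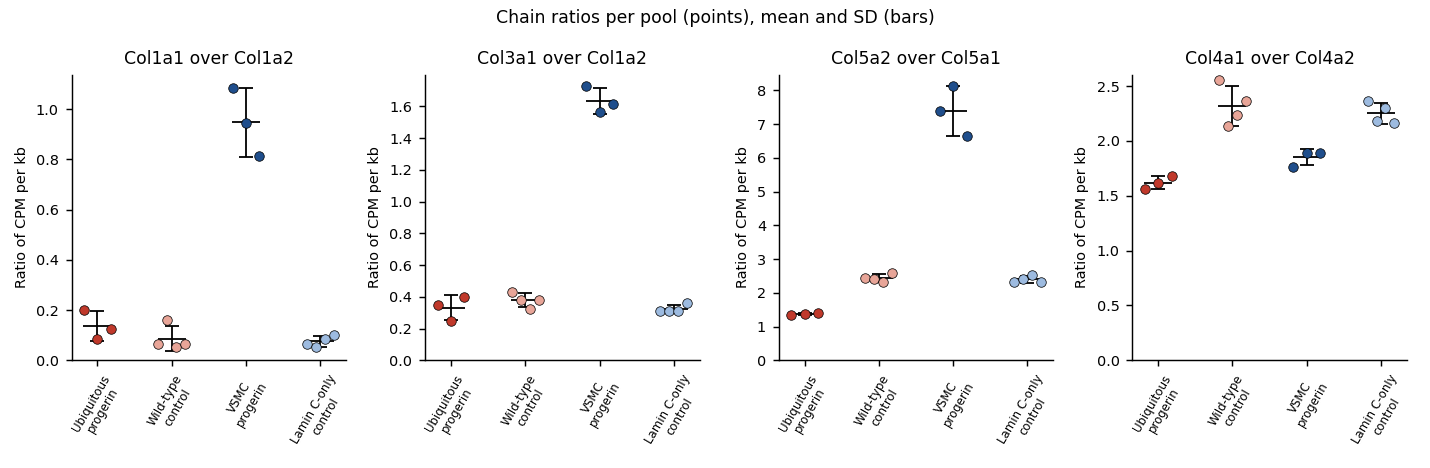
Ratios of levels per kb between chains (vertical axis, linear from 0) in each pool, with the mean and SD as bars, for the same 4 groups. The ratios of Col1a1 and of Col3a1 to Col1a2 and of Col5a2 to Col5a1 are highest in VSMC progerin pools (means 0.948, 1.63 and 7.39), and that of Col4a1 to Col4a2 is lower in both progerin groups (1.62 and 1.85) than in the controls (2.32 and 2.25).

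Of the 6 tested FACIT chains, 2 were higher and 1 lower in ubiquitous progerin intima, and 4 were higher and 1 lower in VSMC progerin intima. The shares over all tested genes were 26.3% higher and 28.3% lower in ubiquitous progerin, and 19.0% higher and 23.0% lower in VSMC progerin intima. Col14a1, a fibril-associated chain of soft tissues, and Col9a1 were higher in both. Col14a1 had 17.97, 21.4 and 21.5 CPM in ubiquitous progerin pools against 11.8, 14.1, 12.2 and 12.0 CPM in wild-type control pools (log2 fold change 0.69 ± 0.23 SE, adjusted p = 0.0199), with no overlap. That call was lost in 3 of the 7 fits that left out 1 pool, at adjusted p between 0.0505 and 0.0658. In VSMC progerin pools Col14a1 had 38.9, 29.8 and 43.9 CPM, against 12.5, 8.92, 14.3 and 21.5 CPM in lamin C-only control pools (1.39 ± 0.22 SE, adjusted p = 0.000216). Col9a1, a chain of cartilage and eye, had 9.75, 6.82 and 10.02 CPM in ubiquitous progerin pools against 3.19, 4.04, 3.97 and 4.19 CPM in wild-type control pools (log2 fold change 1.2 ± 0.20 SE, adjusted p = 3.48e-05). It had 5.95, 5.25 and 5.95 CPM in VSMC progerin pools against 2.85, 4.23, 3.69 and 4.63 CPM in lamin C-only control pools. That second difference (0.57 ± 0.20 SE, adjusted p = 0.0270) was lost in 4 of the 7 fits without 1 pool (adjusted p 0.0582 to 0.0924). Its partner chain Col9a3 averaged 1.25 CPM in ubiquitous progerin and 1.11 CPM in wild-type control intima, and 1.12 CPM in VSMC progerin against 0.886 CPM in lamin C-only control intima, and was not called, and Col9a2 had too few counts to test.

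Col16a1 had 0.818, 1.78 and 2.27 CPM in ubiquitous progerin pools against 2.48 to 2.96 CPM in wild-type control pools, and 9.40, 14.6 and 6.997 CPM in VSMC progerin pools against 2.63 to 3.46 CPM in lamin C-only control pools. The groups did not overlap in either model, and the higher level in VSMC progerin intima (1.79 ± 0.28 SE, adjusted p = 2.64e-05) kept its call in every fit. The lower level in ubiquitous progerin intima (-0.74 ± 0.30 SE, adjusted p = 0.0436) lost its call in 6 of the 7 fits without 1 pool, and the value moved to -0.41 without ubiquitous progerin pool 1. With all pools the call was also lost with DESeq2 size factors (0.0506), in limma-voom (0.131), with only the groups compared (0.0866) and with the pool-number block (0.0568). It was kept in the other alternatives with all pools. Col12a1, which binds fibrils of tissues under tension, averaged 6.65 CPM in VSMC progerin against 1.77 CPM in lamin C-only control intima (1.91 ± 0.34 SE, adjusted p = 0.000131). Col20a1 averaged 5.05 CPM in VSMC progerin against 7.39 CPM in lamin C-only control intima (-0.55 ± 0.20 SE, adjusted p = 0.0342), and without VSMC progerin pool 2 its value was -0.26 (adjusted p = 0.195). The call was also lost without lamin C-only control pool 1 (0.0632), pool 2 (0.056) or pool 4 (0.0686), and with only the groups compared (0.106).

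As background for the other types, 28.3% of all tested genes were lower and 26.3% higher in ubiquitous progerin intima. In VSMC progerin intima 19.0% were higher and 23.0% lower. Of the 12 tested chains of other types, 4 were lower and 1 higher in ubiquitous progerin intima, and 8 were higher and none lower in VSMC progerin intima. Among them was Col8a1, a short network-forming chain that vascular cells deposit after injury. It had 21.2, 19.4 and 19.2 CPM in ubiquitous progerin pools, against 28.1, 47.4, 28.9 and 36.2 CPM in wild-type control pools. It had 198, 191 and 149 CPM in VSMC progerin pools, against 60.8, 56.3, 59.7 and 61.1 CPM in lamin C-only control pools. Neither pair of groups overlapped, with log2 fold changes of -0.82 ± 0.16 SE (adjusted p = 0.000946) and 1.59 ± 0.15 SE (adjusted p = 2.36e-06). Its partner Col8a2 was scarce throughout, at means of 1.63 CPM in VSMC progerin against 0.163 CPM in lamin C-only control intima, where it was 9.73-fold higher (95% interval 3.87 to 24.5, adjusted p = 0.000324).

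Col18a1, a proteoglycan-like chain of vascular basement membranes whose end is released as endostatin, had 96.8, 84.4 and 88.5 CPM in ubiquitous progerin pools and 99.7, 143, 101 and 101 CPM in wild-type control pools. It had 356, 373 and 362 CPM in VSMC progerin pools and 183, 169, 186 and 197 CPM in lamin C-only control pools. The rise in VSMC progerin intima was 1.98-fold (log2 fold change 0.98 ± 0.10 SE, adjusted p = 1.34e-06). The fall in ubiquitous progerin intima (-0.31 ± 0.11 SE, adjusted p = 0.0234) was -0.16 without wild-type control pool 2 (adjusted p = 0.0548). Its call was also lost without ubiquitous progerin pool 2 (0.0931) or pool 3 (0.0765) and with only the groups compared (0.0806). The same held with the pool-number block (0.0585) and in limma's test of the deposited log2 values (0.0585). The related Col15a1 rose in VSMC progerin intima (2.48 ± 0.46 SE, adjusted p = 0.000319), to 7.12 ± 0.49 CPM against 1.28 ± 0.72 CPM in lamin C-only control intima. Its 95% interval in the ubiquitous model ran from -0.20 to 1.79, and the difference between both effects passed narrowly (1.69 ± 0.67 SE, adjusted p = 0.0477) and was lost in 9 of the 14 fits that left out 1 pool.

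The transmembrane chain Col23a1 had 105, 115 and 111 CPM in ubiquitous progerin pools against 145, 141, 149.7 and 127 CPM in wild-type control pools (-0.35 ± 0.06 SE, adjusted p = 8.51e-05). It had 187, 184 and 204 CPM in VSMC progerin pools against 152, 148, 148 and 156 CPM in lamin C-only control pools (0.34 ± 0.06 SE, adjusted p = 0.000158), so changes of near equal size and opposite sign set the pools apart in both models. Another transmembrane chain, Col25a1, was higher in ubiquitous progerin intima (1.54 ± 0.43 SE, adjusted p = 0.00508) at means of 2.66 CPM in ubiquitous progerin and 0.917 CPM in wild-type control intima, and its 95% interval in the VSMC model ran from -1.34 to 0.54. Type VI collagen, the beaded filament around cells, is built of chains from Col6a1, Col6a2 and Col6a3. Col6a1 had 27.9, 26.2 and 20.6 CPM in VSMC progerin pools against 5.28, 3.82, 4.93 and 8.40 CPM in lamin C-only control pools (log2 fold change 2.15 ± 0.26 SE, adjusted p = 7.61e-06). Col6a2 had 21.9, 16.3 and 16.4 CPM in VSMC progerin pools against 2.88, 3.11, 4.80 and 5.88 CPM in lamin C-only control pools (2.13 ± 0.25 SE, adjusted p = 1.44e-06). Col6a3 had 22.1, 16.4 and 17.4 CPM in VSMC progerin pools against 9.53, 7.80, 11.4 and 13.2 CPM in lamin C-only control pools (0.83 ± 0.27 SE, adjusted p = 0.0209), and lost its call in 3 of the 7 fits without 1 pool (adjusted p 0.0544 to 0.0837). All 3 chains were thus higher in each VSMC progerin pool than in any of its controls. In ubiquitous progerin intima Col6a1 (95% interval of the log2 fold change -0.61 to 0.61) and Col6a2 (-0.79 to 0.32) were not called. Col6a3 was called lower there (-0.75 ± 0.30 SE, adjusted p = 0.0466), with 3.96, 1.45 and 3.28 CPM in ubiquitous progerin pools and 4.11, 7.11, 3.84 and 4.48 CPM in wild-type control pools. The groups overlap, and the call was lost in 5 of the 7 fits without 1 pool (-0.43 without ubiquitous progerin pool 2). With all pools it was also lost with DESeq2 size factors (adjusted p = 0.0541), no mitochondrial genes (0.0526) and no filter (0.0629). The same held in limma-voom (0.0849), with only the groups compared (0.0674) and with the pool-number block (0.0911). It was kept with DESeq2 and in limma's test of the deposited log2 values.

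Whether the 2 progerin effects differed was tested directly, as the VSMC progerin effect minus the ubiquitous progerin effect. The difference was positive for 18 and negative for 4 of the 33 collagen chain genes, beside 21.8% and 22.4% of all tested genes (44.2% in all), with a median of 1.36. It was positive for all 6 fibrillar chains called and for 8 chains of other types. Named by the smallest p, Col5a2 differed by 2.40 ± 0.09 SE (adjusted p = 3.18e-13), Col4a1 by 1.36 ± 0.09 SE (5.11e-10), Col4a2 by 1.13 ± 0.11 SE (5.05e-08), Col1a2 by 1.37 ± 0.14 SE (6.87e-07) and Col8a1 by 2.41 ± 0.22 SE (1.92e-06). Col1a1 differed by 4.21 ± 0.57 SE (adjusted p = 0.000136) and Col3a1 by 3.87 ± 0.33 SE (3.36e-06). In 9 genes the effect was called higher in VSMC progerin and lower in ubiquitous progerin intima, namely Col1a2, Col4a1, Col4a2, Col5a2, Col6a3, Col8a1, Col16a1, Col18a1 and Col23a1. The reverse held for Col4a6 alone, with a difference of -1.27 ± 0.23 SE (adjusted p = 0.000207). How many of all tested genes were called in opposite directions was not counted. Of all tested genes, 28.3% were lower in ubiquitous progerin and 19.0% higher in VSMC progerin intima. The ubiquitous progerin calls of Col6a3, Col16a1, Col18a1 and Col4a6 were each lost in several fits without 1 pool. Those of Col6a3, Col16a1 and Col18a1 were also lost in several alternatives that kept all pools. Col4a3 and Col4a4 were called lower in both models, and the further fall in VSMC progerin intima was called for Col4a3 (-0.42 ± 0.13 SE, adjusted p = 0.0126) and not for Col4a4 (-0.35 ± 0.18 SE, adjusted p = 0.123). Leaving out single pools moved both calls, since Col4a3 missed without VSMC progerin pool 1 (adjusted p = 0.0553) or ubiquitous progerin pool 3 (0.0537) and Col4a4 passed without VSMC progerin pool 3 (0.000759). Col9a1 (95% interval -1.22 to -0.04, adjusted p = 0.0782) and Col14a1 (0.01 to 1.39, adjusted p = 0.0942) rose in both models without a called difference, although Col14a1 passed with DESeq2 (0.0366) and without lamin C-only control pool 4 (0.96 on the log2 scale, 0.00148), and Col9a1 without lamin C-only control pool 1 (0.0366) or ubiquitous progerin pool 2 (0.0355).

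Between the 2 controls, lamin C-only over wild-type, 1 of the 33 collagen chain genes was called higher and none lower by edgeR's quasi-likelihood test, beside 0.0911% and 0.0841% of all tested genes (0.175% in all). An unadjusted p under 0.05 by that test was reached by 5 of the 33, and by 1052 of all 14269 tested genes. The called gene was Col18a1, at 183, 169, 186 and 197 CPM in lamin C-only control pools against 99.7, 143, 101 and 101 CPM in wild-type control pools. The groups did not overlap and the log2 fold change was 0.73 ± 0.10 SE (adjusted p = 0.00780). It missed the threshold when only these 2 groups were fitted (adjusted p = 0.0649) and in limma's test of the deposited log2 values (0.0563). Col8a1 had 60.8, 56.3, 59.7 and 61.1 CPM in lamin C-only control pools and 28.1, 47.4, 28.9 and 36.2 CPM in wild-type control pools, again without overlap (0.76 ± 0.14 SE, adjusted p = 0.0651). Col6a3 also lay apart, at 7.80 to 13.2 CPM against 3.84 to 7.11 CPM (1.10 ± 0.26 SE, adjusted p = 0.142). Without wild-type control pool 2, which holds the highest value of each of these 3 genes in its group, the comparison called 4 chains, and Col8a1 (adjusted p = 0.000107), Col6a3 (0.0297) and Col4a2 (0.0323) joined Col18a1. DESeq2 called 3 and limma-voom 2. For Col5a2 the 95% interval of the control difference was -0.18 to 0.06 on the log2 scale, for Col1a2 -0.23 to 0.16 and for Col4a4 -0.35 to 0.14.

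Pools of 1 genotype did not vary evenly. Of the 25 tested collagen chain genes with a mean of at least 5 CPM in some group, 18 had their highest lamin C-only control value in pool 4, among them Col1a1 (26.7 CPM), Col3a1 (89.3 CPM), Col6a1 (8.40 CPM) and Col14a1 (21.5 CPM). The 6 adipocyte markers summed to 532 CPM in that pool and to 135 to 216 CPM in the other 3, and the 12 adventitial fibroblast markers to 2342 CPM against 2152 to 2248 CPM. In wild-type control pool 2, 10 of the 25 were the highest of their group, including Col1a1, Col8a1, Col18a1 and the 3 type VI chains, while Col1a2, Col3a1, Col4a3, Col4a4, Col5a1 and Col5a2 were the lowest. The smooth muscle markers summed to 1153 CPM in wild-type control pool 2 and to 776 to 918 CPM in the other 3. Its adipocyte sum (148 CPM against 132 to 184 CPM) and adventitial fibroblast sum (2181 CPM against 2105 to 2409 CPM) lay within the range of the others. How many of all tested genes were highest or lowest in these 2 pools was not counted, so the counts are not particular to collagen chains. The part of the marker lists in the differences between pools was not tested.

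Genes that process, bind or degrade collagen are given by list, and no list was tested as a set. For every list count, the shares over all tested genes serve as background. In ubiquitous progerin intima 26.3% of all tested genes were higher and 28.3% lower, and in VSMC progerin intima 19.0% higher and 23.0% lower. Of 13 tested genes for propeptide cleavage and cross-linking, 7 were lower and none higher in ubiquitous progerin intima, and 8 were higher and 2 lower in VSMC progerin intima. Pxdn, the peroxidase that cross-links type IV collagen, fell to 21.3 ± 1.0 CPM in ubiquitous progerin intima, against 52.4 ± 5.1 CPM in wild-type control intima (log2 fold change -1.30 ± 0.08 SE, adjusted p = 9.11e-11). Pcolce2, an enhancer of procollagen cleavage, fell in both models (-2.23 ± 0.08 SE, adjusted p = 5.65e-14, and -0.95 ± 0.07 SE, adjusted p = 3.44e-09). In VSMC progerin intima Bmp1, the C-propeptide protease, rose by 0.71 ± 0.06 SE (adjusted p = 1.73e-08) and Adamts2, the N-propeptide protease, by 1.88 ± 0.18 SE (adjusted p = 6.91e-08). Of 19 tested hydroxylases and chaperones, 6 were higher and 9 lower in ubiquitous progerin and 10 higher and 3 lower in VSMC progerin intima. Among them P4ha3, a prolyl hydroxylase subunit, rose in both, to 15.0 ± 2.6 CPM in ubiquitous progerin against 3.13 ± 0.94 CPM in wild-type control intima (2.26 ± 0.25 SE, adjusted p = 1.49e-06), and to 32.0 ± 3.3 CPM in VSMC progerin against 2.71 ± 0.93 CPM in lamin C-only control intima (3.56 ± 0.25 SE, adjusted p = 1.99e-08). Plod1, a lysyl hydroxylase, rose in VSMC progerin intima (0.76 ± 0.06 SE, adjusted p = 1.54e-09), and P4ha1, another prolyl hydroxylase subunit, fell in ubiquitous progerin intima (-0.69 ± 0.08 SE, adjusted p = 5.74e-07).

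All 6 degradation genes were tested, and 4 were higher and none lower in each model. Mmp13, a collagenase, rose by 4.45 ± 0.27 SE (adjusted p = 5.42e-11) in ubiquitous progerin and by 4.58 ± 0.24 SE (adjusted p = 1.30e-11) in VSMC progerin intima. Mmp14, a membrane-bound collagenase, rose by 1.36 ± 0.09 SE (adjusted p = 1.21e-10) and 1.63 ± 0.09 SE (adjusted p = 1.42e-11) in the same models. Mmp2, a gelatinase that cleaves type IV collagen, averaged 652 ± 17 CPM in VSMC progerin against 215 ± 11 CPM in lamin C-only control intima (1.60 ± 0.06 SE, adjusted p = 2.41e-13). Of 9 tested receptors, 2 were higher and 5 lower in ubiquitous progerin and 4 higher and 2 lower in VSMC progerin intima. The leukocyte receptor Lair1 rose in both (4.48 ± 0.33 SE, adjusted p = 1.78e-08, and 3.40 ± 0.32 SE, adjusted p = 4.63e-07), and the collagen-binding kinase Ddr1 fell in both (-0.74 ± 0.06 SE, adjusted p = 3.08e-09, and -0.39 ± 0.06 SE, adjusted p = 2.65e-05). Of 11 tested proteoglycans and fibril partners, 5 were lower and none higher in ubiquitous progerin and 6 higher and 1 lower in VSMC progerin intima. Among them Sparc, a collagen-binding protein, had 702 ± 14 CPM in ubiquitous progerin against 1104 ± 5.1 CPM in wild-type control intima (-0.65 ± 0.05 SE, adjusted p = 1.32e-09), and 3656 ± 142 CPM in VSMC progerin against 1104 ± 39 CPM in lamin C-only control intima (1.73 ± 0.05 SE, adjusted p = 2.43e-15). Between both controls no gene of these lists was called.

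Marker lists of cell types were measured in the same libraries. Beside their counts, 26.3% of all tested genes were higher and 28.3% lower in ubiquitous progerin intima, and 19.0% higher and 23.0% lower in VSMC progerin intima. Endothelial markers summed to 21873 to 22849.5 CPM in ubiquitous progerin against 25028 to 26894 CPM in wild-type control pools (4 of 15 higher, 8 lower), and to 22964 to 24029.7 CPM in VSMC progerin against 23962 to 26000.1 CPM in lamin C-only control pools (5 higher, 7 lower). Smooth muscle markers summed to 1130.4 to 1160.1 CPM in ubiquitous progerin against 776 to 1153 CPM in wild-type control pools (2 of 12 higher, 5 lower), and to 837 to 914 CPM in VSMC progerin against 712 to 872 CPM in lamin C-only control pools (1 higher, 5 lower). The 12 adventitial fibroblast markers summed to 1411 to 1501 CPM in ubiquitous progerin against 2105 to 2409 CPM in wild-type control pools, with 2 called higher and 5 lower. They summed to 3298 to 3911 CPM in VSMC progerin against 2152 to 2342 CPM in lamin C-only control pools, with 7 called higher and 1 lower. The sums of that list and of the collagen chains were thus both low in the first case and both high in the second, but the median log2 fold change over its 12 genes was 0.13 in the ubiquitous and 0.51 in the VSMC model, so in the ubiquitous model sum and median differed in sign. Within the list, Pi16 had 698 ± 86 CPM in VSMC progerin against 229.9 ± 7.7 CPM in lamin C-only control intima, while Pdgfra had 6.19 ± 0.66 CPM in VSMC progerin against 6.30 ± 1.2 CPM in lamin C-only control intima. In VSMC progerin pools the adipocyte list summed to 763 to 1108 CPM (5 of 6 higher) against 135 to 532 CPM in lamin C-only control pools, and the Schwann cell list to 45.6 to 61.4 CPM (2 of 4 tested higher) against 23.3 to 28.04 CPM. The chondrocyte list summed to 104 to 115 CPM against 10.8 to 12.7 CPM in the same groups, mostly from Chad (90.0 ± 6.4 CPM against 6.75 ± 0.25 CPM), and Cnmd was at 0 in every pool. Of its 5 tested genes 3 were higher and 1 lower there. In ubiquitous progerin pools against wild-type control pools the adipocyte list summed to 218 to 384 CPM against 132 to 184 CPM, the Schwann cell list to 19.7 to 21.1 CPM against 23.0 to 26.96 CPM and the chondrocyte list to 22.7 to 27.9 CPM against 11.6 to 19.6 CPM. In that comparison 1 of 6 adipocyte markers was higher, 1 of 4 Schwann cell markers was higher and 2 lower with Sox10 at 0 in ubiquitous progerin pools, and 2 of 5 chondrocyte markers were higher and 2 lower. The 12 macrophage markers had a higher sum in both models, at 1122 to 1729 CPM in ubiquitous progerin against 212 to 289 CPM in wild-type control pools and at 826 to 985 CPM in VSMC progerin against 200.5 to 366 CPM in lamin C-only control pools, with 11 of 12 higher in each model and 1 lower in VSMC progerin intima. Between both controls no marker was called. The part of these cell types in the collagen results was not tested.

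The 11 collagen chain genes not tested were Col6a4, Col6a5, Col9a2, Col10a1, Col11a1, Col13a1, Col19a1, Col22a1, Col24a1, Col26a1 and Col28a1, and the highest count of any of them in a library was 38, for Col6a5 in VSMC progerin pool 2. The 6 members tested but called in neither model were Col2a1, Col5a1, Col6a6, Col7a1, Col9a3 and Col17a1, of which Col5a1 alone exceeded 5 CPM. Col7a1, the anchoring fibril chain of skin, averaged 2.60 CPM in ubiquitous progerin and 3.04 CPM in wild-type control intima, and 2.93 CPM in VSMC progerin against 3.86 CPM in lamin C-only control intima.

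The table of RefSeq promoter windows used here matched 35 of the 44 collagen chain genes, with 38 windows of 300 bases in all, which were searched on both strands. GGGCGG, a GC box, was in 23 of the 38 (60.5%) and in 35.7% of the 32851 windows of all genes. CCAAT was in 34.2% of the windows of collagen chain genes and 37.4% of all, TATAAA in 13.2% and 13.6%, GGAATG in 13.2% and 14.7%, and TGANTCA, the AP-1 motif, in 2.63% and 7.81%. The CArG box, the motif of serum response factor, was in 2.63% and 1.63%. These matches describe letters in a fixed window, and binding was not measured. Col1a1, Col4a3 and Col5a2 were not among the windows used here.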

How the data were processed

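Polyadenylated RNA from 100 ng of total RNA per pool was sequenced in 14 libraries. The authors deposited estimated counts per gene that are not normalised, and the submitters' processing notes name RSEM 1.2.28, STAR 2.7.10b, cutadapt 4.1, Trim Galore 0.6.10 and the mouse build GRCm38. A deposited table of log2 values for 13034 genes was scaled by the authors with limma voom, by its name and per the submitters' processing notes. The sources used here give neither annotation release nor strand setting. Gene positions and transcript lengths came from GENCODE M21, and levels per kb use the longest principal transcript.

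Counts were rounded, filtered with filterByExpr (minimum count 10, minimum total 15, share 0.7) and fitted over all 4 groups with edgeR 4.0.16 in R 4.3.3, by TMM scaling and quasi-likelihood tests, with Benjamini-Hochberg adjustment over all 14269 genes. Comparisons were ubiquitous progerin against wild-type control, VSMC progerin against lamin C-only control, lamin C-only against wild-type control, and the difference of both progerin effects. The members, their classes and the gene lists were chosen with earlier results of these data known. Genes described pool by pool were those called, with a mean of at least 5 CPM in either group, up to 10 per comparison by p, with the partner chains of each, and the rest are summarised or named to account for every member. Col5a3, Col11a2, Col12a1, Col14a1, Col15a1, Col20a1, Col25a1 and Col27a1, and single pools, were named after their values were seen.

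Alternatives were DESeq2 1.42.0, limma-voom (limma 3.58.1) on counts, limma on the deposited values, DESeq2 size factors, no filter, no mitochondrial genes, only the groups compared, a pool-number block and each pool left out. On simulated data for 13944 genes the test recovered 68.0% of 1.5-fold and 100% of 2-fold changes in the ubiquitous comparison, and 62.0% and 98.0% in the VSMC comparison. The changed genes were drawn from the better counted ones, and all genes were given the same dispersion. These shares therefore do not carry over to chains with few counts or a wide spread between pools. No libraries agreed within sampling noise, so none were merged.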

Additional observations from a re-analysis of the deposited data

Results flagged for a closer look

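Single pools lay far from the other 3 of their group for 8 of the 66 combinations of gene and control group examined. The rule is set to flag about 1 in 20 by chance. The combinations share the same pools and are not independent, and the share flagged over all tested genes was not counted. The 8 are therefore not an excess shown for collagen chains. Among lamin C-only control pools, Col11a2 was low in pool 1 at 1.23 CPM (others 2.20 to 2.45 CPM), Col4a3 was high in pool 1 at 249 CPM (others 221 to 224 CPM), and Col3a1 was high in pool 4 at 89.3 CPM (others 59.4 to 63.4 CPM). Among wild-type control pools, Col12a1 at 0.425 CPM (others 1.27 to 1.43 CPM) and Col17a1 at 0.0709 CPM (others 0.413 to 0.521 CPM) were low in pool 1, the library with the fewest genes counted. In wild-type control pool 2 Col9a3 was low at 0.801 CPM (others 1.204 to 1.24 CPM) and Col18a1 high at 143 CPM (others 99.7 to 101 CPM). Col20a1 was high in wild-type control pool 3 at 9.40 CPM (others 7.97 to 8.04 CPM). The progerin groups have 3 pools each and were not examined.

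The VSMC progerin effect differed from the ubiquitous progerin effect in 22 of the 33 tested collagen chain genes by edgeR's quasi-likelihood test of the difference, beside 44.2% of all tested genes. Each difference is given here as the VSMC effect minus the ubiquitous effect on the log2 scale. Among fibrillar chains the difference was 4.21 for Col1a1, 3.87 for Col3a1, 2.40 for Col5a2, 2.18 for Col5a3, 2.00 for Col27a1 and 1.37 for Col1a2. Among basement membrane chains it was 1.36 for Col4a1, 1.13 for Col4a2, -0.42 for Col4a3 and -1.27 for Col4a6. Among FACIT chains it was 2.53 for Col16a1, 1.40 for Col12a1 and -0.86 for Col20a1. Among the other chains it was 3.06 for Col8a2, 2.41 for Col8a1, 2.36 for Col6a2, 2.15 for Col6a1, 1.69 for Col15a1, 1.58 for Col6a3, 1.29 for Col18a1, 0.69 for Col23a1 and -1.93 for Col25a1. Adjusted p ran from 3.18e-13 for Col5a2 to 0.0477 for Col15a1. The call for Col12a1 (adjusted p = 0.0267) was lost in 5 of the 14 fits without 1 pool (up to 0.0706) and in limma's test of the deposited values (0.058), that for Col25a1 without ubiquitous progerin pool 1 (0.0516) and that for Col5a3 in the deposited values (0.082).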

How the results depend on the processing

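No called gene changed direction under any alternative tried. Leaving out 1 pool at a time, called chains ranged from 2 to 5 higher in ubiquitous progerin intima (5 with all pools; 2 without ubiquitous progerin pool 3, and 3 without wild-type control pool 2 or 4). Without ubiquitous progerin pool 1 or 2 these counts, 5 and 4, include Col22a1, which the filter otherwise left out, so that of the 33 chains 4 and 3 were called. Lower calls in ubiquitous progerin intima ranged from 8 to 10 and reached 11 in no fit without 1 pool. They ranged from 3 to 5 lower in VSMC progerin intima (5 with all pools; 3 without lamin C-only control pool 2 or 4 or VSMC progerin pool 2), and from 1 to 4 higher between the controls (4 without wild-type control pool 2). With only the groups compared, 3 chains were lower in VSMC progerin intima and 0 were higher in lamin C-only control intima. Between the controls DESeq2 called 3, limma-voom 2 and the deposited log2 values 0. The median difference of both effects was 1.36, and 0.90 with no low-count filter, which admits further genes. Counted over combinations of gene, comparison and fit without 1 pool, the outcome was the same in 1117, a call was lost in 60 and gained in 11. The 1117 include genes that were not called with all pools and stayed so. Chains with under 5 CPM and intervals above 1 log2 unit are limited by 3 or 4 pools and by depth.

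Pool numbers do not pair the libraries. Same-numbered libraries of different groups correlated at -0.0551 to 0.0227 (19 pairs) in their deviations, other pairs at -0.117 to 0.0999 (54 pairs). With the number as a replicate block, 4 chains were higher and 8 lower in ubiquitous progerin and 20 higher and 5 lower in VSMC progerin intima, 1 was higher in lamin C-only control intima, and 17 differences were positive and 4 negative.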

Other observations

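Partner chains that the report gives singly had these ratios per kb. Col4a6 stood to Col4a5 as 0.464 ± 0.016 in ubiquitous progerin (SD, n = 3) and 0.303 ± 0.034 in wild-type control intima (SD, n = 4), and as 0.201 ± 0.026 in VSMC progerin and 0.286 ± 0.025 in lamin C-only control intima. The ranges of pools lay apart within both pairs, higher in ubiquitous progerin and lower in VSMC progerin intima than in the controls. Col6a1 stood to Col6a2 as 1.33 ± 0.19 in VSMC progerin and 1.33 ± 0.33 in lamin C-only control intima, so both type VI genes rose in like proportion.

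Type I and III chains together had 264 ± 12 CPM per kb in VSMC progerin and 53.3 ± 7.8 CPM per kb in lamin C-only control intima, 26.7% and 10.5% of all collagen expression. Col4a3, Col4a4 and Col4a5 together made 9.04 ± 0.36% in ubiquitous progerin and 16.1 ± 1.7% in wild-type control intima, and 2.21 ± 0.40% in VSMC progerin and 14.4 ± 0.51% in lamin C-only control intima. Col6a5, which was not tested, had 38 counts in VSMC progerin pool 2 and 6 and 3 in the other two.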
